A study of Mus musculus with 15 samples.

Results

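The comparison asked how pre-granulocyte-macrophage progenitors (preGMs) that depend on the p30 allele of Cebpa differed from preGMs with normal Cebpa before leukaemia arose. It used 6 of the 15 arrays of the series, 3 labelled preGM fl/p30 and 3 labelled preGM +/+, and described all 19937 genes with a probe set of their own. All mice were female C57BL/6, all arrays had 20 ng of total RNA amplified before labelling, and cells were taken 3 weeks after conditional knockout. The fl/p30 mice carried 1 floxed and 1 p30 allele with Mx1Cre, a Cre recombinase driven by the interferon-responsive Mx1 promoter, which deletes the floxed allele. The controls carried 2 normal alleles and also Mx1Cre (written Mx1Ce in the labels). Floxed allele and p30 allele came together in the mutants and neither was in the controls, so their contributions cannot be told apart. By the numbers in the labels each of the 6 arrays was a different mouse, and replicates 1 to 3 of a group are numbered as there. Both groups were sorted as cKit+ cells negative for Lin, Sca1, FcgRII, CD41, CD150 and Endoglin.

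C/EBPα, the product of Cebpa, is a basic leucine zipper transcription factor that myeloid progenitors need to become granulocyte-macrophage progenitors (GMPs) and then neutrophils and monocytes. Its messenger is read from alternative start codons, and the short isoform p30 lacks the N-terminal transactivation part through which the long isoform p42 restrains E2F and the cell cycle. The preGM is the stage just before the GMP, where granulocyte and monocyte genes begin to be expressed. Mutations that leave only p30 are found in acute myeloid leukaemia.

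Values are log2 expression, and a difference is the mean of the fl/p30 arrays less the mean of the +/+ arrays, ± its standard error (SE) from a limma model with n = 3 arrays per group. A gene was called, and is said to have risen or fallen, at a Benjamini-Hochberg adjusted p under 0.05 over all 19937 genes. The medians of the 6 arrays lay between 6.05 and 6.15, which stands here for the level near background. Where the lower group lay below it only the log2 difference is given, which may understate the change. The first principal component of the 6 arrays (54.0% of the variance) separated the groups. The second (18.7%) set fl/p30 replicate 1 (-23.0) apart from fl/p30 replicates 2 and 3 (16.5 and 16.1), so values without that array are given where they matter. In sorted bulk cells, fewer cells of a type and less RNA of a gene per cell cannot be told apart.

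Between fl/p30 and +/+ preGMs 334 of 19937 genes (1.68%) were called, of which 129 rose (0.647%) and 205 fell (1.03%). An absolute log2 difference of at least 1 was reached by 173 of them, 66 higher and 107 lower, and one of at least 2 by 36, 10 higher and 26 lower. The largest changes were a rise of granzyme B and the actin-severing protein scinderin, and a fall of coagulation factor XIII A, haptoglobin and annexin A3. The median difference over all genes was 0.03, and without regard to calls 12.4% of genes had all fl/p30 arrays above all +/+ arrays and 12.8% had them all below. None of the 334 called genes had overlapping arrays. The number of calls was 1070 when only the 6 preGM arrays were fitted and between 101 (without +/+ replicate 2) and 223 (without fl/p30 replicate 2) when 1 of the 6 arrays was left out. It was 132 and 136 without +/+ replicates 1 and 3, and 128 and 135 without fl/p30 replicates 1 and 3. The leave-out fits still shared their spread with the GMP arrays. All 82 calls among the genes taken by the naming rule given below were kept when only the 6 preGM arrays were fitted, including those lost in leave-outs.

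**Figure D1:**
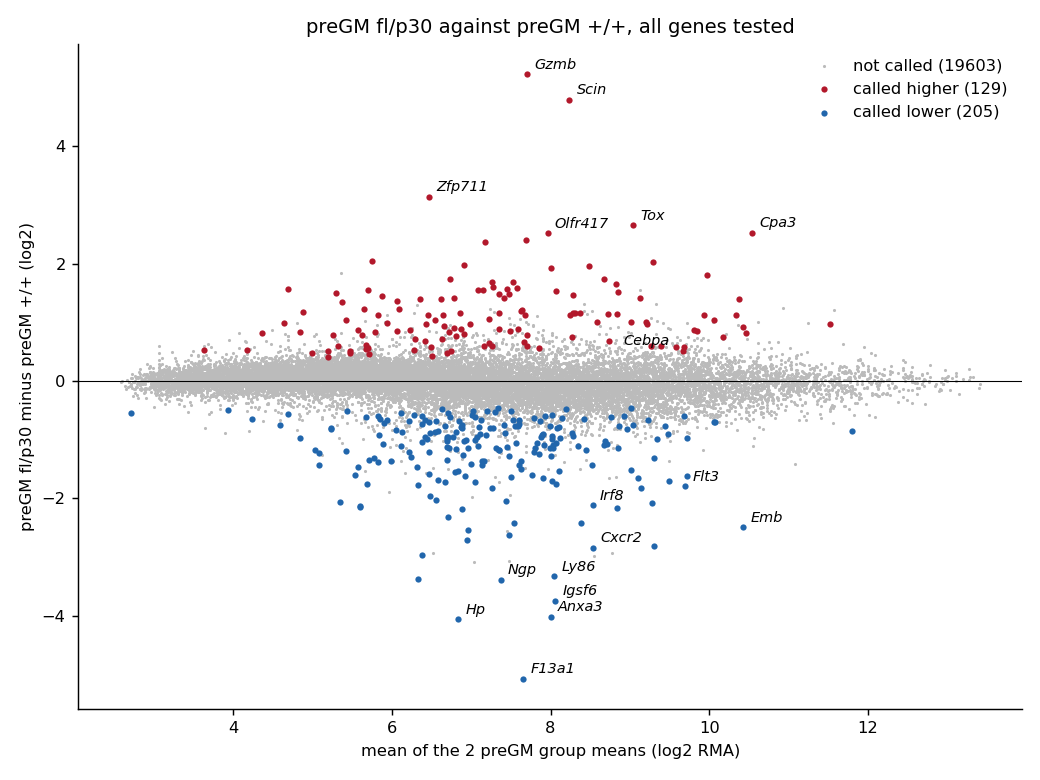
Each point is 1 of the 19937 genes, with the mean of both preGM group means on the x axis (log2) and the fl/p30 minus +/+ difference on the y axis (log2), coloured where the gene was called higher (129 genes) or lower (205 genes). Gzmb and Scin stand alone above a difference of 4, and F13a1 is the lowest point at -5.07.

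Cebpa itself was measured at 8.58, 8.61 and 8.53 in +/+ and at 9.28, 8.90 and 9.10 in fl/p30. The 3 mutant arrays lay above the 3 control arrays, but the difference of 0.52 ± 0.18 was not called (adjusted p = 0.204; 0.0413 with array weights and 0.037 when only the preGM arrays were fitted). Where its probes lie with respect to the deletion and the mutation is not known here, and the level checks nothing about the deletion. Of the 6 C/EBP family genes measured, 1 rose and 0 fell. Cebpg, a family member without a transactivation domain of its own that pairs with other C/EBP proteins, stood at 9.31, 9.37 and 9.44 in +/+ and at 10.19, 10.21 and 10.33 in fl/p30. It rose 1.83-fold (0.87 ± 0.17, adjusted p = 0.0208), a call lost without any 1 of the 6 arrays (adjusted p up to 0.0965, difference 0.82 to 0.90). Cebpb, Cebpd and Cebpe, which act in later granulocyte and monocyte maturation, differed by 0.17, -0.44 and -0.38 and were not called, and Ddit3, the stress-induced member, by 0.60 (adjusted p = 0.0663). Cebpg is the gene next to Cebpa on the chromosome. Of the 40 measured genes closest to Cebpa, 20 on each side, it was the 1 that rose, 0 fell, and their median difference was 0.07.

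Several granule and neutrophil genes fell. Ngp, the neutrophilic granule protein, was at 8.54, 10.36 and 8.30 in +/+ and at 5.50, 5.62 and 5.91 in fl/p30. All mutant arrays were near background, and +/+ replicate 2 was the highest of the controls. Ngp fell by 3.39 ± 0.66 (adjusted p = 0.0202), and by 2.74 without +/+ replicate 2, where it was not called. Cxcr2, the chemokine receptor that brings neutrophils to sites of inflammation, was at 10.19, 10.20 and 9.49 in +/+ and at 6.85, 7.50 and 7.02 in fl/p30. The groups were far apart, a 7.15-fold fall (-2.84 ± 0.47, adjusted p = 0.007), called whichever of the 6 arrays was left out. Mmp8, the neutrophil collagenase, fell by 2.14 ± 0.38 and Ltf, lactoferrin of the secondary granules, by 1.32 ± 0.28 (adjusted p = 0.0109 and 0.0325). These 4 were the genes that fell among 19 secondary granule and neutrophil genes, 0 rose, 16 of 19 lay below 0 and the list's median was -1.17 (-1.24 to -0.73 with 1 array left out). S100a8 and S100a9, the subunits of calprotectin, were at -3.06 ± 1.08 and -2.99 ± 0.94 and were not called (adjusted p = 0.213 and 0.156). Ngp, Mmp8 and Ltf were each highest in +/+ replicate 2. Ngp lost the call also without fl/p30 replicate 1, 2 or 3, Mmp8 without +/+ replicate 2 or fl/p30 replicate 3 (adjusted p up to 0.0573), and Ltf without fl/p30 replicate 1, 2 or 3 (up to 0.117). Without +/+ replicate 2 Ltf was at -0.845, still called. The list had 1 gene called lower at the fewest and 4 at the most over these 6 fits.

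Of 16 genes listed for the primary granule and the early granulocyte, 3 fell and 0 rose, with a median of -0.61. The 3 that fell were not granule enzymes. The count depended on the fit, with 8 of the 16 called lower when only the 6 preGM arrays were fitted and 0 to 2 with 1 array left out. Without array overlap 10 of the 16 lay lower and 2 higher, against 12.8% and 12.4% of all genes. Hp, which encodes haptoglobin, the haemoglobin-binding plasma protein that neutrophils also make, was at 9.03, 8.97 and 8.59 in +/+ and at 5.42, 4.43 and 4.57 in fl/p30. Igsf6, an immunoglobulin-type receptor of myeloid cells, was at 10.01, 9.98 and 9.80 against 6.07, 6.48 and 6.01, and Clec12a, an inhibitory lectin receptor, at 9.84, 10.13 and 9.79 against 8.28, 7.39 and 7.61. No array overlapped for these 3 genes. The falls were 4.06 ± 0.85 for Hp (adjusted p = 0.0283), 3.74 ± 0.68 or 13.4-fold for Igsf6 (0.0119) and 2.16 ± 0.44 or 4.47-fold for Clec12a (0.024). The serine proteases of the primary granule had lower means in fl/p30 and were not called. Elane, neutrophil elastase, was at -3.08 ± 0.86 (adjusted p = 0.106), Prtn3, proteinase 3, at -1.64 ± 0.49 (0.134) and Ctsg, cathepsin G, at -1.42 ± 0.40 (0.107). Mpo, myeloperoxidase, was among the brightest genes of the list in both groups and differed by -0.39 ± 0.13 (adjusted p = 0.204). Hp lost the call without any 1 of the 6 arrays (adjusted p up to 0.113), while its difference stayed between -4.37 and -3.87. When only the 6 preGM arrays were fitted its adjusted p was 1.49e-05. Igsf6 lost the call without +/+ replicate 1 or 2 or fl/p30 replicate 1 or 3 (up to 0.0625), and Clec12a without any array other than fl/p30 replicate 1 (up to 0.109).

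The monocyte and dendritic list had the most genes that fell of any list. F13a1, encoding the catalytic subunit of the clot-stabilising transglutaminase that monocytes and their precursors express, was at 10.31, 10.34 and 9.94 in +/+ and at 5.25, 4.70 and 5.43 in fl/p30. It went from well above the array median to below it in all mutant arrays, a fall of 5.07 ± 0.54 (adjusted p = 0.000306) and the largest of all called genes. Irf8, the transcription factor that directs progenitors to monocytes and dendritic cells, was at 9.91, 9.89 and 8.97 against 7.54, 7.45 and 7.43. It fell 4.34-fold (-2.12 ± 0.30, adjusted p = 0.0027). Csf1r, the receptor of macrophage colony-stimulating factor and a classical C/EBPα and PU.1 target, was at 8.61, 8.61 and 8.17 against 6.68, 6.53 and 6.04. It fell 4.13-fold (-2.04 ± 0.46, adjusted p = 0.0394), and lost the call without any 1 of the 6 arrays (adjusted p up to 0.159), with the animal as a random block (0.0623) and with each array centred on its median. Flt3, the receptor of FLT3 ligand on early lymphoid and dendritic progenitors, was at 10.56, 10.41 and 10.81 against 7.95, 9.05 and 9.42. It fell 3.46-fold (-1.79 ± 0.28, adjusted p = 0.00462), and the lowest array was fl/p30 replicate 1.

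Ly86, which encodes MD-1, the partner of the Toll-like receptor homologue CD180, lies next to F13a1 on the chromosome and fell with it, 10.01-fold (-3.32 ± 0.72, adjusted p = 0.0329; lost without any 1 of the 6 arrays, adjusted p up to 0.141, and at 0.0508 with the animal as a random block). Emb, embigin, a membrane glycoprotein and one of the brightest genes of the list, fell 5.60-fold (-2.49 ± 0.43, adjusted p = 0.0101; 0.0557 without +/+ replicate 2). F13a1, Ly86, Emb, Irf8, Csf1r and Flt3 were the 6 of 20 monocyte and dendritic genes that fell, 0 rose and 18 of 20 lay below 0, with a median of -0.72 (-0.83 to -0.70 with 1 array left out) and 3 to 5 genes called lower in those fits. Cx3cr1, the fractalkine receptor of monocytes, was at -1.23 ± 0.30 (adjusted p = 0.0566), and the MHC class II gene H2-Ab1 at -0.91 ± 0.48 (0.419). Markers of mature macrophages gave 0 of 14 calls and a median of 0.05, with most members, such as the complement gene C1qa, near background in both groups. Among further genes with large falls, Ms4a6c, a membrane protein of myeloid cells, fell 6.98-fold (-2.80 ± 0.45), Mpeg1, the pore-forming perforin-2 of macrophages, 5.34-fold (-2.42 ± 0.42) and Slpi, the secretory leukocyte protease inhibitor, 5.36-fold (-2.42 ± 0.33). Mpeg1 lost the call without +/+ replicate 1 or 2 (adjusted p up to 0.0612).

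**Figure D2:**
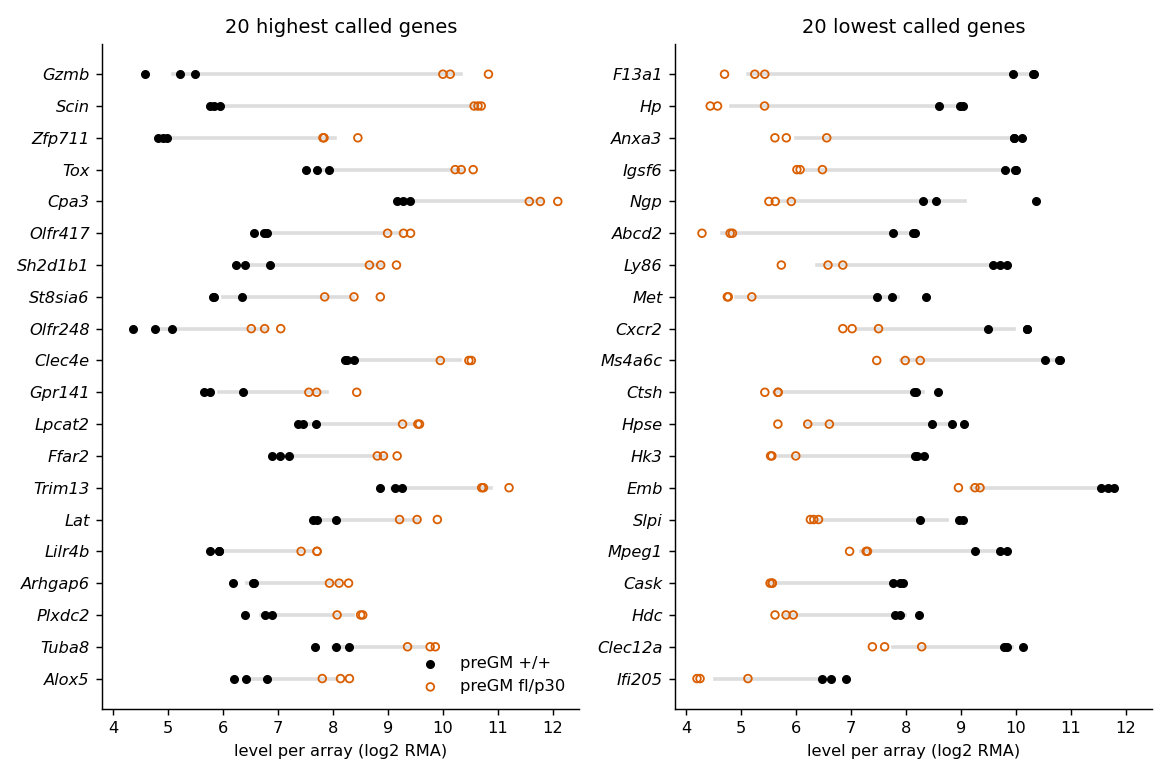
Levels (log2) of the 20 highest and 20 lowest called genes in each array, filled points for the 3 preGM +/+ arrays and open points for the 3 preGM fl/p30 arrays, with a bar between the group means. The 40 genes were chosen among called genes whose arrays do not overlap between the groups. In F13a1, Hp, Ngp, Abcd2, Met, Ctsh, Hk3, Cask, Hdc and Ifi205 the mutant arrays all lie below 6.

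Other large losses covered enzymes, annexins and signalling genes. Anxa3, a calcium-dependent phospholipid-binding annexin, was at 9.96, 10.10 and 9.96 in +/+ and at 6.55, 5.61 and 5.82 in fl/p30. It fell by 4.01 ± 0.67 (adjusted p = 0.00778) and was called in each of the 6 leave-outs. Hk3, the hexokinase isoform of myeloid cells, fell by 2.53 ± 0.47 (adjusted p = 0.0142) and Hpse, the heparan sulfate-cleaving heparanase, by 2.63 ± 0.32 (0.00104). Ctsh, the lysosomal protease cathepsin H, fell by 2.72 ± 0.61 (adjusted p = 0.0377). Abcd2, a peroxisomal transporter of very long-chain fatty acids, fell by 3.37 ± 0.66 (0.021), and Met, the hepatocyte growth factor receptor, by 2.96 ± 0.53 (0.0116). In each of these 5 genes the mutant mean lay near or below the array medians. Hpse kept its call whichever array was left out. Ctsh and Abcd2 lost it without any 1 of the 6 (adjusted p up to 0.155 and 0.0978), Hk3 without any but fl/p30 replicate 2 (up to 0.0733) and Met without +/+ replicate 2 or fl/p30 replicate 3 (up to 0.0715). The smallest p-values among the losses belonged to genes that changed less and had a small SE, with the spread shared over all 5 groups. Abca9, an ABC transporter, was at 6.82, 6.67 and 6.19 in +/+ and at 4.87, 4.88 and 4.70 in fl/p30 (-1.75 ± 0.15, adjusted p = 4.27e-05). Slc9a7, a sodium-proton exchanger of the Golgi, fell 3.30-fold (-1.72 ± 0.15, adjusted p = 5.36e-05) and Rhobtb3 2.65-fold (-1.41 ± 0.13, adjusted p = 0.000111). When only the 6 preGM arrays were fitted the order differed. Abca9, Slc9a7 and Rhobtb3 then had adjusted p of 0.000239, 4.48e-05 and 0.00039, and F13a1 and Igsf6 had 1.26e-06. Cask, a membrane scaffold protein, was at 7.89, 7.94 and 7.76 against 5.56, 5.52 and 5.56, a fall of 2.31 ± 0.33 (adjusted p = 0.00274) with hardly any spread within either group. Ifi205, of the interferon-inducible Ifi200 family, fell by 2.15 ± 0.43 (adjusted p = 0.0234; lost without any array but fl/p30 replicate 3, adjusted p up to 0.11).

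Receptors of the cytokines that drive myelopoiesis fell in 4 of 16 cases and rose in 0, with a median of -0.22 (-0.40 to -0.19 with 1 array left out). Besides Csf1r and Flt3 these were both chains of the interleukin-6 receptor. Il6st, the shared signalling chain gp130, was at 10.44, 10.32 and 10.21 in +/+ and at 8.14, 8.47 and 8.12 in fl/p30. Il6ra, the ligand-binding chain, was at 7.68, 8.09 and 7.87 against 6.91, 6.61 and 6.69. No array of either gene overlapped. Il6st fell 4.23-fold (-2.08 ± 0.30, adjusted p = 0.00301) and Il6ra 2.21-fold (-1.14 ± 0.13, adjusted p = 0.000746), each called in all 6 leave-outs. Il6, the cytokine, was at a mean of 4.44 in +/+ and 6.28 in fl/p30, a difference of 1.85 ± 0.44 that was not called (adjusted p = 0.0534). Csf3r, the receptor of granulocyte colony-stimulating factor, was at -0.67 ± 0.33 (adjusted p = 0.388), and Csf2ra, of the GM-CSF receptor, at -0.13. Of 25 cytokine and chemokine ligands, 1 rose and 1 fell. Ccl5, a chemokine of T cells and NK cells, was at 8.16, 8.31 and 7.80 against 10.14, 9.32 and 9.36 and rose 2.87-fold (1.52 ± 0.27, adjusted p = 0.0106; not called without +/+ replicate 3 or fl/p30 replicate 1, adjusted p up to 0.0618). Ccl9, a myeloid chemokine, was at 9.26, 9.23 and 9.25 against 8.52, 8.09 and 7.91 and fell 2.10-fold (-1.07 ± 0.16, adjusted p = 0.00445). Among 20 myeloid genes linked to C/EBPα in the literature, which share members with the lists above, 3 fell (Csf1r, Il6ra and Ltf), 0 rose and 16 lay below 0, with a median of -0.48.

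**Figure D3:**
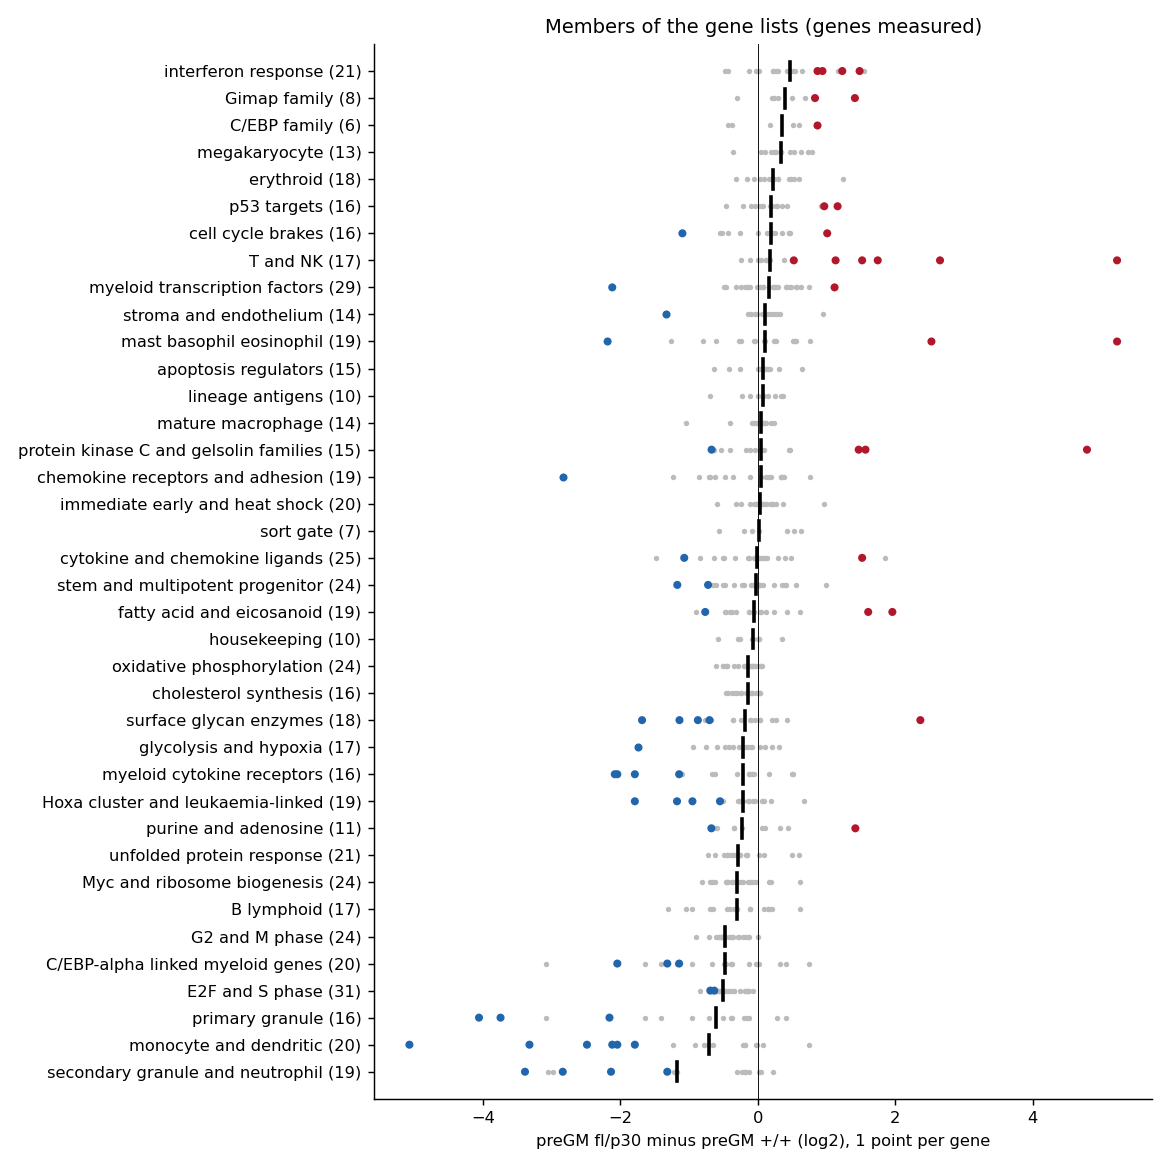
Each point is 1 measured member of a gene list (number measured in brackets) at its fl/p30 minus +/+ difference (log2), coloured where called, and the black bar is the list's median. Secondary granule genes have the lowest median (-1.17) and interferon response genes the highest (0.46).

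The largest rise was that of a gene listed both for T and NK cells and for mast cells. Gzmb, granzyme B, the serine protease of cytotoxic granules, was at 5.48, 4.57 and 5.21 in +/+ and at 10.83, 9.997 and 10.13 in fl/p30. It went from background to a high level in every mutant array, a rise of 5.23 ± 0.27 (adjusted p = 1.56e-07), the largest of all called genes. Tox, a nuclear factor of T cell and innate lymphoid development, was at 7.93, 7.50 and 7.71 against 10.55, 10.33 and 10.22. It rose 6.29-fold (2.65 ± 0.30, adjusted p = 0.000488). Lat, the adaptor of T cell receptor and mast cell signalling, rose 3.35-fold (1.75 ± 0.29, adjusted p = 0.00783; 0.0521 without +/+ replicate 2). Sh2d1b1, the adaptor EAT-2 of SLAM family receptors in NK cells, rose 5.28-fold (2.40 ± 0.21, adjusted p = 5.02e-05). Of 17 T and NK cell genes, 6 rose and 0 fell, namely Gzmb, Tox, Lat, Ccl5, the adhesion receptor gene Cd96 (1.13 ± 0.25) and Bcl11b, a T lineage factor (0.52 ± 0.12), and 3 or 4 rose with 1 array left out. Over all genes 0.647% rose, and the list was chosen with earlier results of these data known. The list's median was 0.17 (0.14 to 0.37 with 1 array left out), 15 of 17 lay above 0, and its mean level (average of its genes' deviations from their own 15-array means) was -0.47 to -0.38 in the +/+ arrays and 0.37 to 0.44 in the fl/p30 arrays. Defining genes of those cells stayed low in both groups. The T cell receptor subunit gene Cd3e was at 6.04 in both, Cd3g at 4.43 and 4.58, the NK receptor gene Ncr1 at 4.95 and 5.07 and Gzma, granzyme A, at 5.08 and 5.10, in +/+ and fl/p30, none of them called. Prf1, perforin, was at 6.44 and 6.62.

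Cpa3, the carboxypeptidase of mast cell granules, was at 9.40, 9.17 and 9.28 in +/+ and at 12.09, 11.57 and 11.77 in fl/p30. It was well expressed in controls and rose 5.77-fold (2.53 ± 0.34, adjusted p = 0.00243). Hdc, the histidine decarboxylase of mast cells and basophils, moved the other way, from 8.23, 7.80 and 7.90 to 5.61, 5.95 and 5.81 (-2.19 ± 0.36, adjusted p = 0.00755). Of 19 mast cell, basophil and eosinophil genes, 2 rose (Cpa3 and Gzmb), 1 fell and the median was 0.11. The mast cell proteases Mcpt4, Cma1 and Tpsab1 were at means of 4.33, 4.53 and 4.79 in +/+ and 4.28, 4.76 and 4.88 in fl/p30, near background in both groups. Gata2, a factor of mast cells and progenitors, differed by 0.56 ± 0.23 and Mcpt8, a basophil protease, by -0.80 ± 0.20 (adjusted p = 0.294 and 0.0599).

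Scin, scinderin, a calcium-dependent protein that severs actin filaments, had the smallest adjusted p of all genes, from 5.93, 5.75 and 5.83 in +/+ to 10.69, 10.56 and 10.64 in fl/p30. The difference was 4.79 ± 0.23 (adjusted p = 7.82e-08). Its relative Capg, a capping protein, fell 1.59-fold (-0.67 ± 0.15, adjusted p = 0.0337), and Gsn, gelsolin, was at 0.45 ± 0.13 (0.134). Protein kinase C genes rose for the α isoform, Prkca (2.96-fold, 1.57 ± 0.29, adjusted p = 0.0141), and the θ isoform of T cells, Prkcq (2.77-fold, 1.47 ± 0.34, adjusted p = 0.0415). The 15 protein kinase C and gelsolin family genes were listed with earlier results of these data known. Of them 3 rose and 1 fell, against 0.647% and 1.03% of all genes, and the median was 0.04. Prkcq lost the call without any 1 of the 6 arrays (adjusted p up to 0.159), Prkca without +/+ replicate 2 or any fl/p30 array (up to 0.0808) and Capg without any but fl/p30 replicate 2 (up to 0.16) and with an intensity trend (0.0549), while Scin kept it throughout. Zfp711, a zinc finger gene, was at 4.90, 4.97 and 4.81 against 7.83, 7.81 and 8.45 (3.14 ± 0.24, adjusted p = 1.45e-05). Trim13, a ubiquitin ligase of the endoplasmic reticulum, rose 3.49-fold from an already high level (1.80 ± 0.22, adjusted p = 0.00104).

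Some genes of lipid mediators rose. Lpcat2, which makes the platelet-activating factor precursor, was at 7.69, 7.36 and 7.44 in +/+ and at 9.57, 9.54 and 9.26 in fl/p30 (3.89-fold, 1.96 ± 0.20, adjusted p = 0.000252). Alox5, 5-lipoxygenase, the first enzyme of leukotriene synthesis, was at 6.20, 6.79 and 6.42 against 8.30, 7.80 and 8.13 (3.05-fold, 1.61 ± 0.35, adjusted p = 0.0324; lost without any 1 of the 6 arrays, adjusted p up to 0.145). Ffar2, the receptor of short-chain fatty acids, rose 3.79-fold with a small spread (1.92 ± 0.14, adjusted p = 5.98e-06). Fasn, fatty acid synthase, fell 1.70-fold (-0.77 ± 0.13, adjusted p = 0.0103; 0.0521 without +/+ replicate 2). In the list of 19 fatty acid and eicosanoid genes, 2 rose, 1 fell and the median was -0.06. Clec4e, the lectin receptor Mincle, rose 4.09-fold (2.03 ± 0.44, adjusted p = 0.0336; lost without any 1 of the 6 arrays, up to 0.129). The receptor genes Gpr141 and Lilr4b rose by 1.97 ± 0.31 and 1.74 ± 0.28 from near background (adjusted p = 0.00537 and 0.00563). Arhgap6, the gene of a GTPase-activating protein, rose 3.21-fold (1.68 ± 0.21), as did the plexin-domain gene Plxdc2 (1.68 ± 0.32, adjusted p = 0.0154; lost without +/+ replicate 1 or 2 or fl/p30 replicate 1 or 2, up to 0.085), and the tubulin gene Tuba8 rose 3.16-fold (1.66 ± 0.25).

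Surface glycan enzymes changed in both directions. St8sia6, a sialyltransferase that adds α2,8-linked sialic acid, was at 6.34, 5.83 and 5.81 in +/+ and at 8.86, 7.85 and 8.38 in fl/p30 (2.37 ± 0.37, adjusted p = 0.00504). Galnt3, which starts O-linked glycans, fell by 1.68 ± 0.30, and Mgat5, which branches N-linked glycans, by 1.14 ± 0.21 (adjusted p = 0.0103 and 0.0144). St6galnac4 and St8sia4 fell by 0.87 ± 0.19 and 0.70 ± 0.14. Of 18 such genes 1 rose, 4 fell and the median was -0.18. St8sia6 kept its call in the 6 leave-outs, in which 0 to 3 of the enzymes were called lower, Galnt3 in 3 (not without +/+ replicate 2 or 3 or fl/p30 replicate 3, adjusted p up to 0.0674) and Mgat5 in 2 (not without +/+ replicate 1 or 2 or fl/p30 replicate 1 or 3, up to 0.0834).

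3 olfactory receptor genes that follow each other on chromosome 1 rose together, the only run of 3 called genes of 1 direction among 19855 genes placed in the reference order. Olfactory receptors are G protein-coupled receptors best known from the nose. Olfr417 was at 6.80, 6.56 and 6.74 in +/+ and at 9.41, 8.99 and 9.28 in fl/p30, and Olfr248, the next gene, at 4.36, 4.75 and 5.07 against 7.05, 6.75 and 6.51. All mutant arrays lay at least 1 log2 unit above all control arrays for both. The rises were 5.75-fold for Olfr417 (2.52 ± 0.27, adjusted p = 0.000306), 2.04 ± 0.31 for Olfr248 (0.00356) and 1.39 ± 0.28 for Olfr414 (0.0245). Olfactory receptor genes are similar in sequence, so their probes may share signal, which was not tested. Of the 40 measured genes closest to Olfr417, 2 rose (Olfr248 and Olfr414) and 1 fell (Ifi205), and the median difference was 0.02.

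The 250 bases before the start of Olfr417 and Olfr248, which moved together, and of Ngp, a granule gene that fell, are shown here from the RefSeq promoter table (GRCm38.p6), 5′ to 3′ on the gene's strand, with matches to the C/EBP letters TTGCNNAA on either strand in capitals. The regions are chr1:174368669-174368918, chr1:174390796-174391045 and chr9:110419558-110419807, all on the plus strand.
Olfr417: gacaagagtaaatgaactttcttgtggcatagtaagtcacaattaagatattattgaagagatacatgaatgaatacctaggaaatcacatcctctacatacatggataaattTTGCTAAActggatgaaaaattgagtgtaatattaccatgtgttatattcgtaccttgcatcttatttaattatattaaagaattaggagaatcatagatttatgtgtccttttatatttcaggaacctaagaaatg
Olfr248: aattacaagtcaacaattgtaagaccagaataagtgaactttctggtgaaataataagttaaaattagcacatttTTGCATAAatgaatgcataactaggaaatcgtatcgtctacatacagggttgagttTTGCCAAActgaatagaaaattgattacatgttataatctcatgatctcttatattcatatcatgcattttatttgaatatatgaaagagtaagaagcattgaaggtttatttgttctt
Ngp: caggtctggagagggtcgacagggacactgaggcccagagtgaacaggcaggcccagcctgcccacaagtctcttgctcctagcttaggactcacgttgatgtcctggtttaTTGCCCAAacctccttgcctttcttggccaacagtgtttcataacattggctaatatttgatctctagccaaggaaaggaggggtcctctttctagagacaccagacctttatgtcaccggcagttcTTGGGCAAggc
The match of Olfr417 begins 137 bases before the start, those of Olfr248 at 175 and 119 and those of Ngp at 138 and 11. These genes were picked by their difference among called genes that held the letters, so their having a match was fixed by the choice. The 250 bases before the start of Cebpa held 0 matches. The shares that follow were read in a longer window of 300 bases, 250 before the start and 50 after it. Over all genes with a promoter in the table, 1865 of 19115 promoters (9.76%) held the C/EBP letters in that window. The share was 12.1% of the 132 promoters of called higher genes and 8.88% of the 214 promoters of called lower genes, and no test was made. The E2F letters TTTGGCGC or TTTCGCGC were in 0.758%, 0.935% and 1.13% of higher, lower and all promoters, the GATA letters AGATAAG in 0.758%, 2.34% and 2.58%, and the ETS letters CCGGAAGT in 3.03%, 0.935% and 5.43%, all read on both strands. A match describes the letters and is not a binding site, and no match says only that the letters are not in that window.

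Called genes also lay beside each other elsewhere. Of the 129 genes called higher, 13 had an adjacent measured gene called higher, the 3 olfactory receptor genes included, and of the 205 called lower, 14 had one called lower. Over all genes tested 0.647% were called higher and 1.03% lower, and a gene can have a neighbour on either side. Adjacent genes of the same family may share probe signal, which was not tested. Among the pairs were F13a1 with Ly86, Ms4a6c with Ms4a6b (-1.51 ± 0.27), Il6st with Il31ra, which encodes the interleukin-31 receptor (-1.12 ± 0.15), Lilr4b with Lilrb4a (1.12 ± 0.25) and Gimap8 with Gimap9. The Gimap family encodes GTPases of lymphocyte survival, and 2 of its 8 genes rose, 0 fell and 7 lay above 0 (median 0.40). Gimap9 was at 8.45, 8.19 and 8.64 in +/+ and at 9.58, 9.95 and 9.99 in fl/p30 (2.66-fold, 1.41 ± 0.24, adjusted p = 0.00883; 0.0587 without +/+ replicate 2). Gimap8 rose by 0.83 ± 0.18, with the call kept only without +/+ replicate 3 (adjusted p up to 0.168). Lpcat2 and Arhgap6 each hold another called gene within their span in the reference (Capns2, 1.12 ± 0.17, and Amelx, 1.36 ± 0.17), for which the files do not tell whether the signal comes from the host gene.

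Genes of DNA replication had slightly lower means in fl/p30. All 31 E2F and S phase genes measured lay below 0, with a median of -0.51, and 2 fell while 0 rose. These were E2f8 and E2f7, the atypical E2F repressors, with E2f8 at 10.44, 10.47 and 10.32 in +/+ and at 9.39, 9.94 and 9.82 in fl/p30. E2f8 fell 1.61-fold (-0.69 ± 0.14, adjusted p = 0.0249) and E2f7 1.55-fold (-0.63 ± 0.15, adjusted p = 0.049, not called with an intensity trend or with each array centred on its median). Arrays did not overlap for 24 of the 31, against 12.8% of all genes in that direction. Uhrf1, a DNA methylation maintenance factor, was the lowest of the list at -0.84 ± 0.21 without a call (adjusted p = 0.0595), and Pcna, the sliding clamp, differed by -0.16 ± 0.14. Of 24 G2 and M phase genes, 0 were called, 23 lay below 0 and the median was -0.48, with the mitotic kinases Aurkb at -0.89 ± 0.29 and Plk1 at -0.72 ± 0.25 (adjusted p = 0.173 and 0.202). When only the 6 preGM arrays were fitted, 8 of the S phase genes and 3 of the G2 and M phase genes were called lower and 0 higher. Both lists were lowest in fl/p30 replicate 1. The mean level of the S phase list was 0.22 to 0.29 in the +/+ arrays, -0.46 in fl/p30 replicate 1 and -0.03 and -0.12 in replicates 2 and 3, and that of the G2 and M list 0.08 to 0.32, -0.50, -0.04 and -0.03. Without fl/p30 replicate 1 the medians were -0.33 and -0.27. E2f8 and E2f7 were then not called, nor were they without any +/+ array or fl/p30 replicate 3 (adjusted p up to 0.11 and 0.216).

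Of 16 cyclins and cell cycle inhibitors, 1 rose and 1 fell. Ccnd1, cyclin D1, was at 8.40, 8.34 and 8.64 in +/+ and at 7.16, 7.33 and 7.60 in fl/p30 and fell 2.14-fold (-1.10 ± 0.15, adjusted p = 0.00274, called in all 6 leave-outs). Ccng2, a cyclin linked to growth arrest, was at 8.13, 7.97 and 8.17 against 9.11, 9.03 and 9.15 and rose 2.01-fold (1.01 ± 0.21, adjusted p = 0.0263; lost without any 1 of the 6 arrays, up to 0.118). Myc differed by -0.13 ± 0.13. Of 24 Myc and ribosome biogenesis genes, 0 were called and 21 lay below 0 (median -0.30), led by the RNA polymerase I subunit gene Polr1a at -0.82 ± 0.27 (adjusted p = 0.173). Pfkp, the platelet-type phosphofructokinase of glycolysis, fell 3.36-fold (-1.75 ± 0.39, adjusted p = 0.0347; lost without any 1 of the 6 arrays, up to 0.162), 1 of 17 glycolysis and hypoxia genes called (median -0.21). Oxidative phosphorylation (24 genes, median -0.14), cholesterol synthesis (16, -0.15) and the unfolded protein response (21, -0.28) gave 0 calls. Of 16 p53 targets 2 rose and 0 fell, Perp, a desmosomal apoptosis effector, 1.96-fold (0.97 ± 0.14, adjusted p = 0.00336) and Gadd45a, a stress and growth arrest gene, 2.24-fold (1.16 ± 0.23, adjusted p = 0.0233; called in 1 of 6 leave-outs, that of fl/p30 replicate 2, up to 0.109 in the others). Of 15 apoptosis regulators 0 were called (median 0.07).

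Homeobox and progenitor genes fell in part. Hoxa9, a homeobox gene of progenitor self-renewal that is high in many leukaemias, was at 8.24, 7.86 and 7.70 in +/+ and at 6.73, 7.08 and 6.46 in fl/p30. Hlf, a bZIP factor of stem cells, was at 9.30, 8.98 and 8.83 against 7.61, 8.25 and 7.74. Both separated the groups in all arrays. Hoxa9 fell 2.26-fold (-1.18 ± 0.17, adjusted p = 0.00336) and Hlf 2.25-fold (-1.17 ± 0.17, adjusted p = 0.00285), and both were called in all 6 leave-outs. In the Hoxa cluster and leukaemia-linked list 4 of 19 fell and 0 rose (median -0.22), with Flt3, Hoxa5 (-0.95 ± 0.18) and Trib1, a C/EBPα-degrading pseudokinase (-0.55 ± 0.12). Hoxa5 and Trib1 were each called only without fl/p30 replicate 2 (adjusted p up to 0.0905 and 0.158 in the other leave-outs). Hoxa7 and Hoxa10 were at -0.29 and -0.22 without a call. Of 24 stem and multipotent progenitor genes 2 fell and 0 rose, with a median of -0.02. Besides Hlf this was Tek, the angiopoietin receptor, at -0.72 ± 0.14 (adjusted p = 0.015; up to 0.0794, called without +/+ replicate 1 or fl/p30 replicate 3). Angpt1, its ligand, was at 0.99 ± 0.26 without a call (adjusted p = 0.0807). Ikzf2, the zinc finger factor Helios, was the 1 of 29 myeloid transcription factor genes that rose (2.17-fold, 1.12 ± 0.24, adjusted p = 0.0331; lost without any 1 of the 6 arrays, up to 0.145), and Irf8 the 1 that fell, while Spi1, which encodes PU.1, was at -0.50 ± 0.29 (adjusted p = 0.478).

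Interferon response genes had the highest median of the lists when all 6 arrays were used. The median of the Gimap family was higher without fl/p30 replicate 1 (0.545 against 0.504) and without +/+ replicate 3 (0.540 against 0.454). Usp18, the protease that removes ISG15, was at 6.67, 6.64 and 6.91 in +/+ and at 7.95, 8.49 and 8.22 in fl/p30 (2.79-fold, 1.48 ± 0.31, adjusted p = 0.0263). Ifit3, an antiviral RNA-binding partner, rose by 1.23 ± 0.28, Oas2, an oligoadenylate synthetase, 1.92-fold (0.94 ± 0.21) and the GTPase gene Mx2 by 0.87 ± 0.19. These were the 4 of 21 that rose, 0 fell, 17 lay above 0 and the median was 0.46. With each array centred on its median Ifit3 and Oas2 were not called, which left 2 of the 21. With 1 array left out 0 or 1 of the 21 was called (Mx2, without +/+ replicate 3 or fl/p30 replicate 1), and the adjusted p of the 4 reached 0.111 to 0.204. Ifit3, Oas2 and Mx2 were each highest in fl/p30 replicate 2, and the list's mean level was 0.42, 0.84 and 0.49 in the fl/p30 arrays against -0.07 to 0.13 in +/+. Rtp4 was at 1.55 ± 0.39 and Mx1, whose promoter drives the Cre of both groups, at 0.29 ± 0.18 (adjusted p = 0.0683 and 0.509). Purinergic receptors moved both ways among 11 purine and adenosine genes, with 1 risen and 1 fallen. P2rx1, an ATP-gated channel of platelets and myeloid cells, was at 6.91, 6.43 and 6.76 against 7.87, 8.38 and 8.10 (2.68-fold, 1.42 ± 0.20, adjusted p = 0.00285), and P2rx7, the ATP-gated channel that activates the inflammasome, at 7.21, 7.32 and 7.04 against 6.40, 6.56 and 6.58 (-0.68 ± 0.15, adjusted p = 0.0337). P2rx7 lost the call without any 1 of the 6 arrays (adjusted p up to 0.155).

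Genes of the gate and of other lineages were checked in the same arrays. Kit, positive in the gate, was at 10.52, 10.17 and 10.43 in +/+ and at 10.23, 10.39 and 10.26 in fl/p30, high in both. Of the 7 genes measured in the sort gate list 0 were called. They include Ly6e, which is not the Sca1 antigen, and Ly6a, which encodes Sca1, is not analysed here. Those of the negative gate were not all near background. Slamf1 (CD150) was at 4.18 to 4.70 and 4.38 to 5.10 in +/+ and fl/p30, while Itga2b (CD41), Eng (endoglin), Fcgr2b and Fcgr3 had array values between 6.12 and 7.75. Itga2b differed by 0.53 ± 0.25, Fcgr3 by 0.62 ± 0.20, Fcgr2b by -0.57 ± 0.30 and Eng by -0.20 ± 0.14 (adjusted p = 0.363, 0.169, 0.421 and 0.547). Lineage antigens gave 0 of 10 calls with a median of 0.07. Erythroid genes gave 0 of 18, with 15 above 0, 9 with no array overlap in that direction (12.4% of all genes) and a median of 0.22, led by the carbonic anhydrase Car1 at 1.24 ± 0.49 (adjusted p = 0.273). Megakaryocyte genes gave 0 of 13, 12 above 0 and a median of 0.34, led by the platelet glycoprotein Gp5 at 0.78 ± 0.25 (adjusted p = 0.164).

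B lymphoid genes gave 0 of 17 calls and a median of -0.30, with 1 control array apart from the others. The list's mean level was 1.53 in +/+ replicate 3, 0.13 and 0.16 in the other +/+ arrays and 0.19 to 0.43 in fl/p30. In that array Rag1, the recombinase of lymphocyte precursors, was at 8.92 (6.63 and 6.08 in the others) and the adaptor gene Blnk at 8.14 (6.34 and 6.22). Without it the median was 0.09, and Blnk and Rag1 were at -0.69 and -0.19. The same array was the lowest of the controls for Irf8, Csf1r, Cxcr2, F13a1 and Slpi. The lists of stroma and endothelium (1 of 14 lower, Emcn, the endothelial mucin endomucin, -1.34 ± 0.21, adjusted p = 0.00413; median 0.11), immediate early and heat shock genes (0 of 20, median 0.04), chemokine receptors and adhesion (1 of 19 lower, Cxcr2, median 0.04) and housekeeping genes (0 of 10, median -0.07) complete the 38 lists. In these lists 608 of 670 genes were measured. With 1 array left out the median of 24 of the 38 lists moved by over 1.5 times or changed sign.

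The GMPs of the same mutant mice showed how far these differences extended to the next stage. GMP fl/p30 was compared with GMP fl/+, whose mice carried 1 floxed and 1 normal allele with Mx1Cre, so control genotype changed together with stage. The values of both stages are given side by side. Gzmb differed by 5.23 ± 0.27 in preGMs and 4.63 ± 0.27 in GMPs, Scin by 4.79 ± 0.23 and 5.21 ± 0.23, Cpa3 by 2.53 ± 0.34 and 3.09 ± 0.34, and Olfr417 by 2.52 ± 0.27 in both. Several rises had larger values in GMPs, Tox at 2.65 ± 0.30 and 4.10 ± 0.30, St8sia6 at 2.37 ± 0.37 and 3.97 ± 0.37, Prkcq at 1.47 ± 0.34 and 3.65 ± 0.34, Trim13 at 1.80 ± 0.22 and 3.23 ± 0.22, Plxdc2 at 1.68 ± 0.32 and 3.28 ± 0.32 and Alox5 at 1.61 ± 0.35 and 3.01 ± 0.35. For Tox the mutant means were 10.37 in preGMs and 10.44 in GMPs and the control means 7.71 and 6.34. For Trim13 they were 10.88 and 10.28 against 9.08 and 7.05. St8sia6, Plxdc2 and Alox5 had higher mutant means in GMPs (9.45, 8.93 and 10.22) than in preGMs (8.36, 8.37 and 8.08). Several losses had larger values in preGMs, F13a1 at -5.07 ± 0.54 and -3.02 ± 0.54, Anxa3 at -4.01 ± 0.67 and -1.93 ± 0.67, Ly86 at -3.32 ± 0.72 and -0.70 ± 0.72 and Flt3 at -1.79 ± 0.28 and -0.49 ± 0.28. Hdc was at -2.19 ± 0.36 and -2.21 ± 0.36. The GMP fl/p30 arrays were far apart for some of the losses. F13a1 was at 6.01, 6.31 and 8.35 there (GMP fl/+ mean 9.91). Anxa3 was at 7.51, 9.15 and 10.88 (fl/+ mean 11.11) and Ly86 at 6.06, 8.14 and 9.73 (8.68). Their smaller mean losses in GMPs were therefore not shared evenly by the mutant arrays. Without a term for the animal none of these stage differences was called. In that test of the difference itself 1 of 19937 genes was called, P2rx7, which was lower in mutant preGMs (-0.68 ± 0.15) and higher in mutant GMPs (0.98 ± 0.15, adjusted p = 0.00132), a stage difference of -1.65 ± 0.21 (adjusted p = 0.0269). An unadjusted p under 0.05 was reached by 2616 genes. The preGM and GMP fl/p30 arrays came from the same 3 mice, and with the animal as a random block 76 stage differences were called. These included 7 of the named genes called in preGMs, P2rx7 (adjusted p = 0.0207), Trim13 (0.0498), Ifi205 (0.0451), Mmp8 (0.0324), Ccl9, Slc9a7 (0.0271 for both) and Rhobtb3 (0.033), and Prkcq was at 0.0565. In fits with no animal term the count was 1482 without GMP fl/+ replicate 1, 117 without GMP fl/p30 replicate 3 and 0 to 4 without 1 of the other arrays, so the number of stage differences called rested on single GMP arrays.

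**Figure D4:**
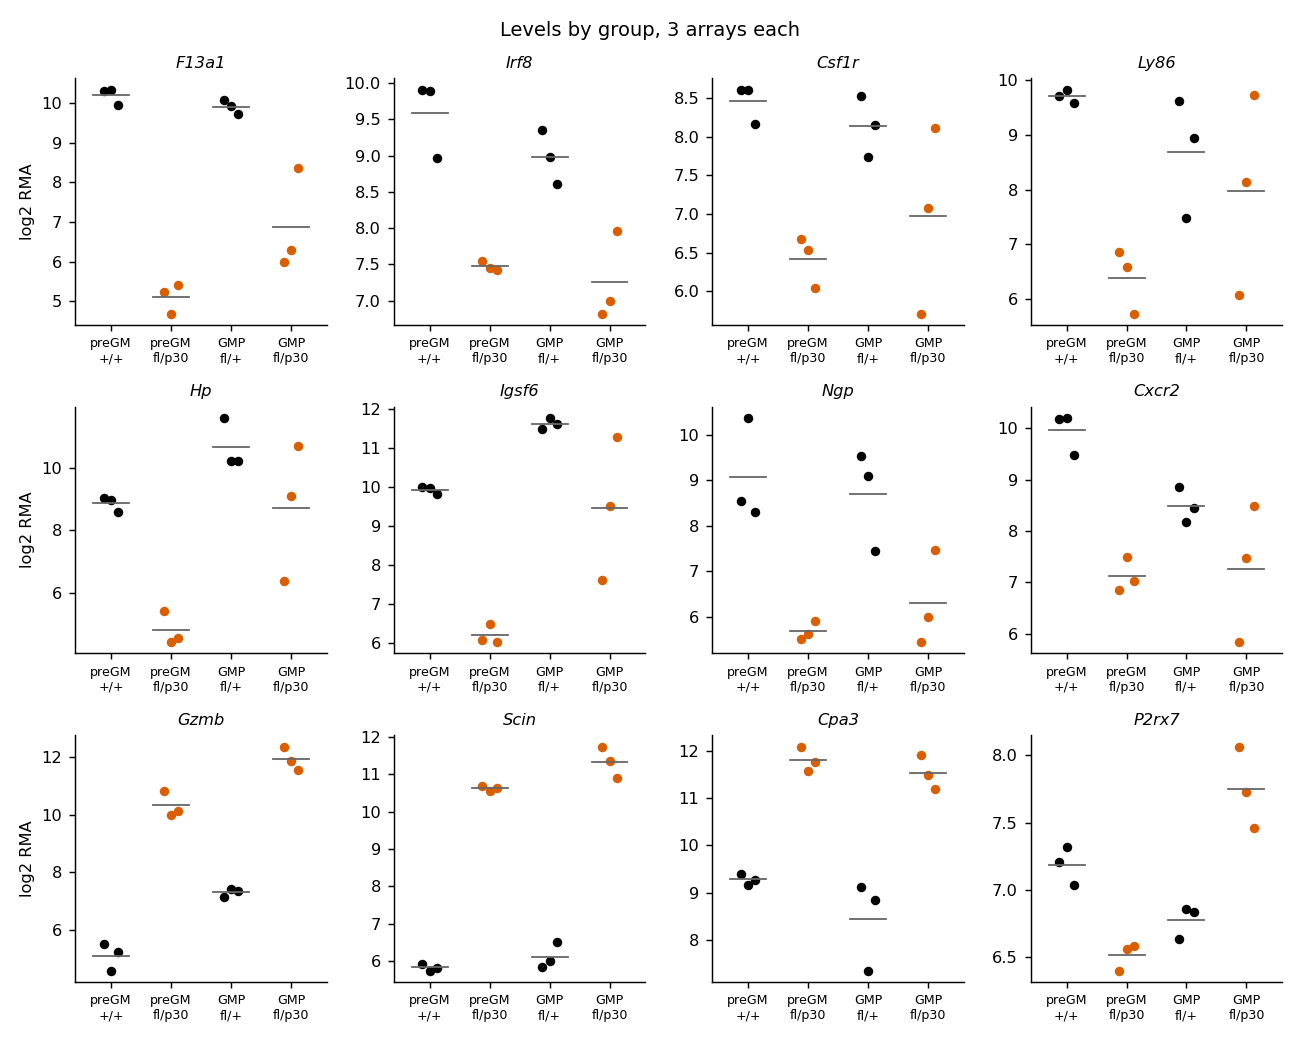
Levels (log2) of 12 genes in the 3 arrays of each of 4 groups, with the group mean as a line, black for controls and orange for fl/p30. F13a1, Irf8 and Ngp are lower and Gzmb, Scin and Cpa3 higher in fl/p30 at both stages, and P2rx7 is lower in mutant preGMs and higher in mutant GMPs.

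**Figure D5:**
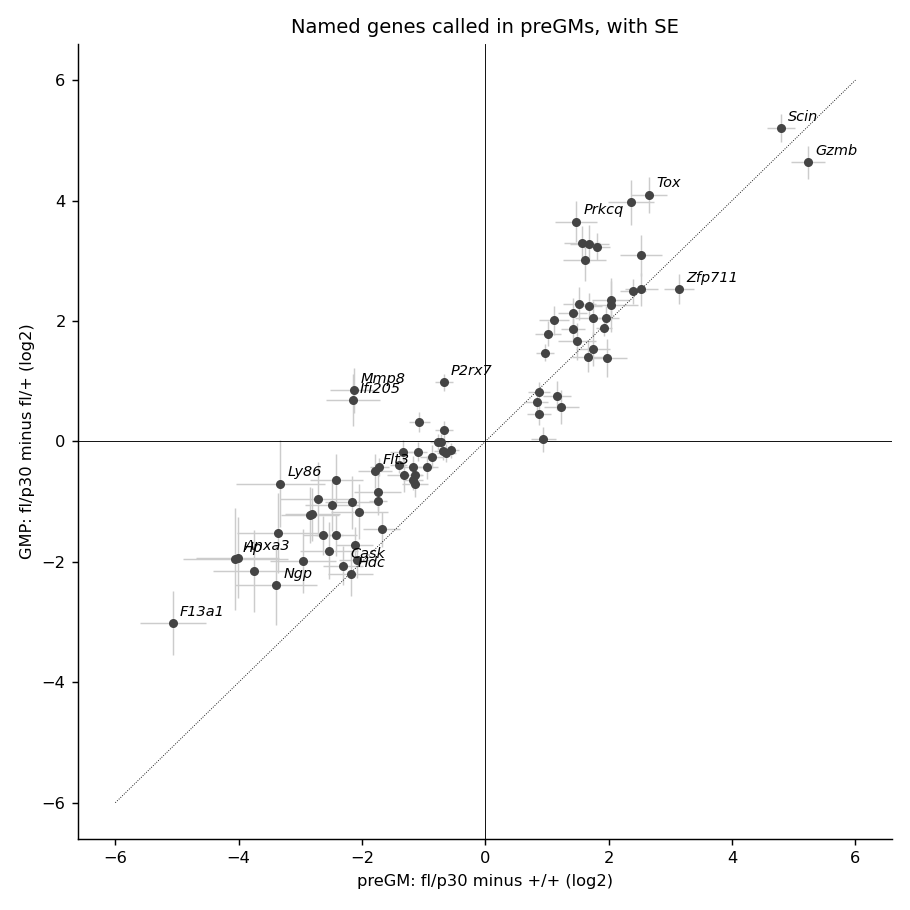
Each point is 1 of the 82 named genes called in preGMs, with its fl/p30 difference in preGMs on the x axis and in GMPs on the y axis (log2, bars are SE, the dotted line marks equal values). Scin and Tox lie above the line and Gzmb below it, and F13a1, Hp, Anxa3 and Ly86 are closer to 0 in GMPs.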

How the data were processed

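RNA of 15 samples of sorted marrow progenitors, 5 groups of 3, was hybridised to Mouse Gene 1.0 ST arrays (Affymetrix). The deposited values are log2 expression. Per the submitters' processing notes they came from affy with RMA, a method of background correction, quantile normalization and probe summary. Tool version and filter were not given in the sources used here. Quantile normalization removes any shift shared by most genes. Arrays have no read depth, and 3 per group limit the precision.

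Of 34760 probe sets, 21640 had 1 gene symbol in the platform annotation, 1321 several and 11799 are unnamed here. The 19937 genes tested were represented by the probe set with the highest mean over the 15 arrays (954 genes had more than 1), with no filter on dim ones. Groups and animal numbers came from the labels. limma 3.58.1 (R 4.3.3) fitted 5 group means to all 15 arrays, with eBayes without trend (10 residual, 4.24 prior degrees of freedom) and Benjamini-Hochberg adjustment. The groups share 1 estimate of the spread. The root mean square within-group SD was 0.165 in preGM +/+, 0.211 in preGM fl/p30, 0.319 in GMP fl/+ and 0.269 in GMP fl/p30, so the shared estimate tends to give too high p-values between the preGM groups. The script was tested on simulated data. The preGM and GMP fl/p30 arrays came from the same 3 animals by the labels' numbers, and deviations of the same animal correlated at 0.334, 0.320 and 0.116.

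The members and the 38 gene lists were chosen with earlier results of these data known, and lists were described by counts and medians with no set test. The naming rule took Cebpa, the sort gate, called genes without array overlap (20 highest, 20 lowest), the 10 of smallest adjusted p and from each list at most 4 of its calls (in a list with no call, the 2 largest differences), 116 in all, without clone and predicted symbols. Further list members and neighbouring genes were chosen for naming once their values had been seen. The RefSeq gene table (GRCm38.p6; 19855 genes matched by Entrez ID) gave gene order only, and the RefSeq promoter table gave sequences for 15562 of the genes. Alternatives were fits of the 6 arrays, with an intensity trend, robust, with array weights, a difference threshold, probe set means, brighter genes only, median-centred arrays, single arrays left out, a replicate block and animals as random blocks.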

Additional observations from a re-analysis of the deposited data

Results flagged for a closer look

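P2rx7, the gene of the ATP-gated P2X7 channel, had a difference between fl/p30 and control that was not the same at both stages, by the test of the difference itself in limma. Its log2 level was 7.21, 7.32 and 7.04 in preGM +/+ and 6.40, 6.56 and 6.58 in preGM fl/p30, all mutant arrays being lower. Among GMPs the fl/+ arrays had 6.63, 6.85 and 6.83, and the fl/p30 arrays were all higher at 8.07, 7.73 and 7.46. The preGM difference less the GMP difference was -1.655 (SE 0.21, adjusted p = 0.0269), 1 gene of 19937, and it was also called with the animal as a random block (adjusted p = 0.0207). The call was lost on leaving out GMP fl/p30 replicate 2, GMP fl/+ replicate 3, preGM fl/p30 replicate 1 or 3, or any 1 of the preGM +/+ arrays. The controls of the stages differ in genotype (+/+ and fl/+), and stage and control genotype cannot be told apart.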

How the results depend on the processing

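The count of 334 calls was 1070 in a fit of the 6 preGM arrays (328 of the 334 among them), 1167 with array weights (all 334), 173 under a minimum change of 1 log2 unit either way, and 101 to 223 with 1 array left out. It was 300 with each array centred on its median, which moved the median difference of all genes from 0.03 to -0.01, and 260 of 10922 among genes brighter than the median. Replicate numbers did not pair the preGM groups, which are separate animals (correlations of same-numbered deviations -0.0602, 0.0384 and 0.0592), and a replicate block in the fit of the 6 arrays gave 1060 calls. The single stage difference became 2 with an intensity trend, 1991 with array weights, 76 with the animal as a random block, and 0 to 1482 with 1 array left out. Of the 82 named calls, 38 were kept in all 6 leave-outs and 16 in none, 80 with the animal as a random block, and all 82 with the 6 arrays, array weights or the replicate block. The difference of Ly6e (0.02, not called) turned sign with array weights (-0.0551), with centred arrays (-0.0133) and without +/+ replicate 3 or fl/p30 replicate 1 or 2, the range with 1 array left out being -0.0397 to 0.118. Signal limits what can be seen: in 68 of the 205 genes that fell the fl/p30 mean, and in 50 of the 129 that rose the +/+ mean, lay below 6.12, the median of all values, so those differences may be understated. Causes of these changes were not tested.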

Other observations

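Among the 334 called genes outside the named ones, some belonged to groups that no list covered. They were picked after their values were seen, so no count or test is attached to them, and they stand for no group. H2-Ab1 and Cd68, of MHC class II and of the lysosome like some of the genes that follow, were not called (adjusted p = 0.419 and 0.0659). Ctss, the cathepsin that trims the invariant chain of MHC class II, fell 3.55-fold (-1.83 ± 0.40) and H2-DMa, which loads peptides on MHC class II, 3.25-fold (-1.70 ± 0.33). Unc93b1, the escort of endosomal Toll-like receptors, fell 3.03-fold (-1.60 ± 0.33), Scpep1, a serine carboxypeptidase, 2.83-fold (-1.50 ± 0.33) and Psap, the saposin precursor, 2.47-fold (-1.30 ± 0.30). Hgf, the ligand of the receptor encoded by Met, fell 2.57-fold (-1.36 ± 0.31), so both genes of the pair were lower. Notch1 fell 2.25-fold (-1.17 ± 0.20) and Mef2c, a factor of lymphoid and monocytic progenitors, 1.96-fold (-0.97 ± 0.17). Ifngr2, a chain of the interferon-gamma receptor, fell 3.26-fold (-1.71 ± 0.36).

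Some called genes are best known from T, NK or innate lymphoid cells and did not all move the same way. Lag3, an inhibitory receptor, rose 2.95-fold (1.56 ± 0.27), Trgv1, a T cell receptor gamma variable segment, 3.00-fold (1.58 ± 0.19), and Ctsw, a cathepsin of cytotoxic cells, by 1.40 ± 0.28. Il18r1, an interleukin-18 receptor chain, rose 2.24-fold (1.17 ± 0.26), as did Zbtb16, the factor PLZF of innate-like lymphocytes (1.17 ± 0.24), and Cd244a, a SLAM family receptor, rose by 0.998 ± 0.21. The T cell coreceptor genes Cd28 and Btla moved the other way, by -0.84 ± 0.19 and -0.51 ± 0.12. Of adhesion and guidance receptors, Cdh1, E-cadherin, rose 2.94-fold (1.55 ± 0.22) and Nrp1, neuropilin 1, fell by 1.95 ± 0.36.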
